A study of Mus musculus with 4 samples.

Results

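Steep rises of replication fork direction that were present in every library were located in mouse embryonic stem cells with and without Snf2h. A rise was the polarity of the 100 kb window starting 200 kb downstream minus the polarity of the window itself, so each rise spans a pair of windows of 300 kb in all, with a gap of 100 kb between them. Polarity is the deposited strand imbalance of captured DNA 3′ ends in percentage points, bounded at -50 and 50. Windows with a rise of 30 points or more in all 4 libraries were kept, and kept windows starting 25 kb apart were merged into a zone. This gave 669 zones made of 2205 windows, out of 94040 autosomal windows with a rise in all 4 libraries and 109033 windows in the table. The members were thus chosen on the rises themselves, so the number and size of rises below are descriptions.

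The cells were embryonic stem cells of the line 129S6/SvEvTac, grown in medium with serum and LIF on gelatin. The wild-type group (WT) and the group lacking Snf2h (KO, genotype SNF2KO in the labels) held 2 libraries each, from duplicate cultures, and no other treatment or time point is named. How the deletion was made, and whether the KO cultures came from 1 clone, is not given in the sources used here. The genotypes are those of the labels, without a check on Snf2h itself.

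TrAEL-seq ligates an adaptor to free 3′ ends of DNA, many of which lie at replication forks, and the strand on which they lie reports the direction in which forks move through a region. Where forks leave a site in opposite directions, as at a zone of replication initiation, the strand imbalance changes sign over a short distance, while regions where forks meet usually show a more gradual change of the opposite sign. The strand counted as positive is not stated in the sources used here, so the zones are described as rises and not named as sites of initiation. Snf2h (gene Smarca5) is the ATPase of ISWI remodelling complexes, which slide and space nucleosomes. Polarity is an average over a population of cells, in which the frequency of a fork direction and its share of the captured ends cannot be told apart.

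Promoters of genes that start inside the steepest zones are shown first, because 69.3% of the zones with known gene strands have a gene start in the gap, and the rule did not use genes. Features other than RefSeq genes were not examined. The 4 steepest zones with a listed gene start were taken by their smallest rise over the libraries, and in each the gene start nearest the mean position of polarity 0. Sequences are RefSeq promoters (GRCm38.p6) from 250 bases before to 50 bases after the gene start, 5′ to 3′ on the strand of the gene, with each CG dinucleotide in capitals. CG reads the same on both strands.
Smarcad1: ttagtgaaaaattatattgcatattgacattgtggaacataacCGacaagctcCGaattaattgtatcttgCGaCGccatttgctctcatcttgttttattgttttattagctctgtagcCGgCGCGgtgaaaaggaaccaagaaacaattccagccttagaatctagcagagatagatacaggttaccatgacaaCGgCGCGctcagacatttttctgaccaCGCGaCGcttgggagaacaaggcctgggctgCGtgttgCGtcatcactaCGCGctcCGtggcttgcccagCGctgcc
Trim7: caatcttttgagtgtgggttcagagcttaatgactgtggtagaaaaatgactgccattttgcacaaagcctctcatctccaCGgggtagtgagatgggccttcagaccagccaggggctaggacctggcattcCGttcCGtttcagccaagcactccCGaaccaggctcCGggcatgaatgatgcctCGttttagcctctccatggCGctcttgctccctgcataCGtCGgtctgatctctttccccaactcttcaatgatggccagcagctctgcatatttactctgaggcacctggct
Cggbp1: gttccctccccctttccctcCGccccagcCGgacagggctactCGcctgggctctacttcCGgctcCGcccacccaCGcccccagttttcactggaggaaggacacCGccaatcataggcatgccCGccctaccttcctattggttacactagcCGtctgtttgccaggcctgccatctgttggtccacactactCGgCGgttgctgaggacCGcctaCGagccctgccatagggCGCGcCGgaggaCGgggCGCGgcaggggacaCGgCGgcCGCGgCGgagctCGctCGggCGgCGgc
Mrpl39: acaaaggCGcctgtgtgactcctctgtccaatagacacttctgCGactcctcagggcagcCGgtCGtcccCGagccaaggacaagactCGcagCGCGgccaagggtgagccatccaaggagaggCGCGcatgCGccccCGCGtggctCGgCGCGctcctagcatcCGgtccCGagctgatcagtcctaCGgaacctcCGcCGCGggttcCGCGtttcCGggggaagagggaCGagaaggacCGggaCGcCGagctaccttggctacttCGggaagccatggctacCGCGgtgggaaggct
The Smarcad1 promoter lies at chr6:65042341-65042640 on the plus strand and holds 19 CG. Smarcad1 encodes a chromatin remodeller of the SNF2 family. The Trim7 promoter, of a ubiquitin ligase gene, lies at chr11:48825888-48826187 on the plus strand and holds 9 CG. The Cggbp1 promoter, of a CGG repeat binding protein gene, lies at chr16:64851751-64852050 on the plus strand and holds 28 CG. The Mrpl39 promoter, of a mitochondrial ribosomal protein gene, lies at chr16:84735195-84735494 on the minus strand and holds 32 CG. The gene starts lay 20.2 kb downstream of the mean zero position for Smarcad1 and 3.85 kb downstream for Trim7. For Cggbp1 and Mrpl39 the values were -19.8 kb and -25.9 kb, on the upstream side.

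The zones were found on all 19 autosomes and lay far apart. Between the middles of neighbouring zones the median distance was 2600 kb, with quartiles of 1250 and 4725 kb over 650 neighbouring pairs. Distances ranged from 50 kb to 21100 kb, and their SD of 3045 kb was close to their mean of 3487 kb. Of the pairs, 34 were under 500 kb apart and 116 were under 1000 kb apart. Chromosome 13 had the highest density, with 4.01 zones per 10 Mb of measured windows, and chromosome 8 the lowest, with 2.02. Chromosome 1 held the most zones (54) and chromosome 19 the fewest (16).

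Zones were narrow. The number of kept windows times 25 kb gave a median width of 75 kb and a largest width of 175 kb. Of the 669 zones, 144 consisted of 1 window and 24 reached the largest width. A larger rise widens the stretch above the minimum, so width and rise are not independent measures.

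**Figure D1:**
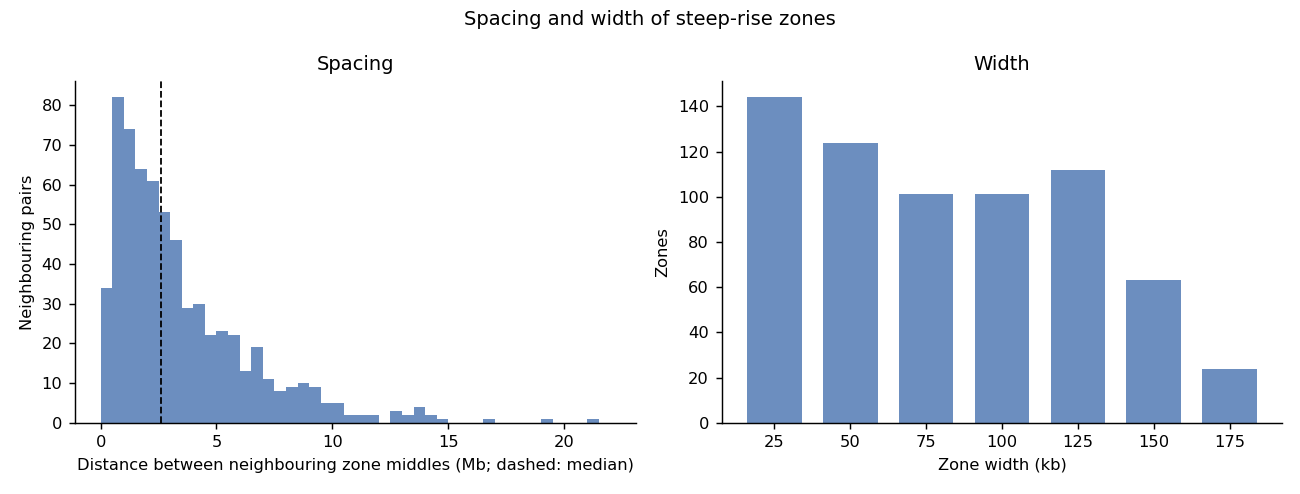
Distances between the middles of neighbouring zones (left, Mb, in bins of 0.5 Mb, dashed line at the median of 2600 kb) and widths of zones (right, kb, number of zones per width). Most neighbours lie within 5 Mb. No width, counted as kept windows times 25 kb, exceeds 175 kb, and the printed span of a zone is longer.

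The longest stretches without a zone differed in gene content. On chromosome 11 no zone middle lay between 84100001 and 105200001, a stretch of 21.1 Mb with 422 protein-coding genes (20.0 genes per Mb). On chromosome 15 the stretch from 8775001 to 28075001 (19.3 Mb) had 48 such genes, or 2.49 genes per Mb. Autosomes held 8.79 protein-coding genes per Mb of measured windows, so long stretches without a zone occurred in both gene-rich and gene-poor DNA.

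The minimum of 30 points was passed by different numbers of windows in the 4 libraries. In WT replicates 1 and 2, 5.43% and 3.58% of windows had a rise of 30 points or more, against 10.0% and 5.17% in KO replicates 1 and 2. The windows kept in all 4 libraries were 43.2% and 65.4% of those in WT replicates 1 and 2, and 23.4% and 45.4% of those in KO replicates 1 and 2. WT replicate 2 was the library that most often removed a window by itself, with 896 windows below 30 points in that library alone. The numbers were 564 for KO replicate 2, 159 for WT replicate 1 and 23 for KO replicate 1. The SD of polarity over autosomal windows was 14.6 and 12.8 points (WT) against 19.4 and 14.5 points (KO), in the same order of libraries. At the edge of the rule, the window at 9575001 on chromosome 4 was kept with 30.0 points in KO replicate 2. The window at 98000001 on chromosome 5 was left out with 29.99 points in WT replicate 2, although its rises were 37.8, 60.1 and 49.4 points in WT replicate 1 and KO replicates 1 and 2.

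The rise at the steepest pair of each zone was next described by library. In WT replicate 1 the lowest, median and highest rises were 30.0, 40.9 and 62.2 points, and in WT replicate 2 they were 30.0, 37.7 and 58.2 points. In KO replicate 1 they were 30.6, 55.1 and 81.6 points, and in KO replicate 2 they were 30.0, 40.7 and 65.8 points. KO replicate 1 stood apart, with the highest rise of the 4 libraries in 602 of the 669 zones. WT replicate 2 had the lowest rise in 387 zones. KO replicate 2 and WT replicate 1 overlapped over nearly their whole ranges.

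Averaged over zones, the rise had a WT mean of 39.9 ± 2.44 points and a KO mean of 48.3 ± 9.30 points (SD, n = 2 each). The 4 values were 41.7 and 38.2 points (WT) against 54.9 and 41.8 points (KO). The difference of 8.40 points exceeded the pooled replicate SD of 6.80 points. Each KO library exceeded each WT library, but KO replicate 2 did so by a small margin. No test is given, since the rule used these values. The KO to WT ratio of 1.21 was near the 1.24 of the SD of polarity over all autosomal windows. Without KO replicate 1 the difference was 1.79 points, and without KO replicate 2 it was 12.9 points. By chromosome the ratio ranged from 1.18 on chromosome 19 to 1.24 on chromosome 5.

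In units of the SD of polarity of each library, the mean rise was nearly the same in the 4 libraries. It was 2.85 and 2.98 SD in WT and 2.83 and 2.88 SD in KO, a difference of -0.0615 SD against a pooled replicate SD of 0.0697 SD. For these zones, which were chosen in points, the sign of the difference in the mean rise thus changed with the scale. When each library was first rescaled to the same SD and the zones were found again (814 zones), the difference was 0.125 points, against 8.40 points. In SD units the KO mean was above the WT mean in 274 of the 669 zones, against 629 zones in points.

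**Figure D2:**
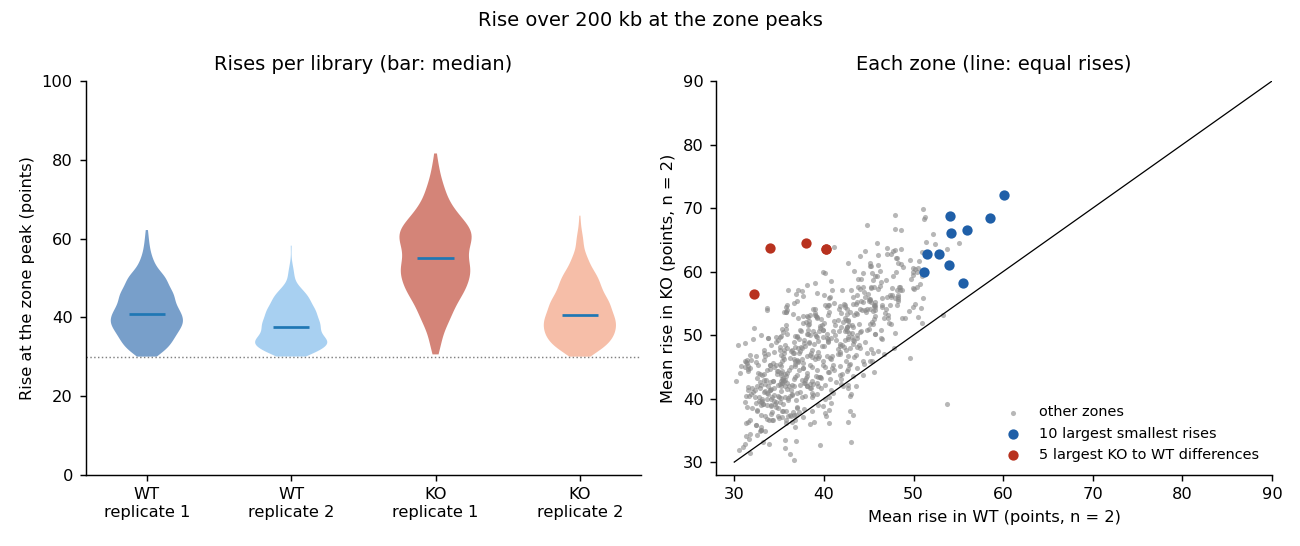
Rise at the steepest pair of each of the 669 zones (points), as distributions per library with the median as a bar (left, dotted line at the minimum of 30 points), and as the WT mean against the KO mean of each zone (right, n = 2 libraries each). KO replicate 1 has a median of 55.1 points against 37.7 to 40.9 points in the other libraries, and 629 zones lie above the line of equal rises.

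Differences between genotypes at individual zones were set beside those of all windows, with limma fitted to the rises of all 94040 windows. The rule required a large rise in every library, so the counts that follow describe the zones and do not test them. The steepest pair was called in 0 of 669 zones at an adjusted p-value under 0.05 (limma, Benjamini-Hochberg), while 0.00851% of all windows were called. At an unadjusted p-value under 0.05, limma called 112 zones (111 higher and 1 lower in KO), which is 16.7% of zones beside 11.1% of all windows. With libraries standardised it called 20 zones (10 in each direction), or 2.99% beside 13.1% of all windows, and with the trend and robust options 10 zones (all higher in KO), or 1.49% beside 11.1%. With the replicate number as a block it called 179 zones (178 higher in KO), or 26.8% beside 14.5%. Both the share and the direction of these calls thus changed with the fit. Both KO rises lay above both WT rises in 285 zones (42.6%), beside 20.5% of all windows, and below both in 10 zones (1.49%), beside 22% of all windows. In SD units these were 109 zones (16.3%) above and 171 zones (25.6%) below, beside 21.8% of all windows for each direction. Without KO replicate 1, 4 of 680 zones found again from the other libraries were called, beside 5.86% of all windows. Without KO replicate 2, 292 of 815 zones found again were called, beside 11% of all windows, and so were 293 of the original 669. In both fits the remaining KO library was assumed to vary as WT does. With libraries standardised in the fit, 1 of 669 zones was called, beside 0.551% of all windows. With the replicate number as a block, 8 zones were called, beside 1.51% of all windows; the labels give these numbers no shared batch.

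The position at which polarity changed sign was described next. The rule bounds it, because all libraries had to rise between the same paired windows, and a rise displaced far in 1 library would not have been kept. In 650 zones polarity passed through 0 exactly once between the paired windows in each of the 4 libraries. Across the 4 libraries these positions spanned a median of 19.6 kb, less than the 25 kb between windows, and in 432 zones (66.5%) they fell within 25 kb of each other. Over the 8583 autosomal windows with such a position in all 4 libraries, the median span was 23.2 kb. Between replicates the mean distance was 10.6 kb in WT and 12.1 kb in KO. Between genotypes KO replicate 1 lay 11.0 kb from WT replicate 1 and 11.9 kb from WT replicate 2, and KO replicate 2 lay 14.8 and 15.9 kb from them.

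Within these bounds, the mean positions of the genotypes differed by less than the pooled spread between replicates. Relative to the middle of the pair, the mean position was 0.483 and 1.53 kb in WT and 1.42 and 1.18 kb in KO. The difference of 0.294 kb was below the pooled replicate SD of 0.538 kb (n = 2 each), and its sign changed without WT replicate 1 (-0.107 kb) and without KO replicate 2 (-0.171 kb). Both KO positions lay downstream of both WT positions in 147 zones (22.6%) and upstream in 144 zones (22.2%). The shares over all such windows were 20.9% and 22.3%.

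The mean profile around the zones was symmetric. At the upstream window of the pair, mean polarity was -20.8 and -19.2 points (WT) against -27.6 and -20.9 points (KO). At the downstream window it was 20.9 and 19.0 points (WT) against 27.3 and 20.9 points (KO). At the middle all 4 means lay between -0.630 and -0.244 points. The mean profile reached its lowest and highest values 100 or 125 kb from the middle in every library. The paired windows are centred 100 kb on either side of the middle, and the steepest pair was chosen. The place of these extremes, and in part the symmetry, thus follow from the rule. At 500 kb it had fallen back to between -7.57 and -5.01 points upstream and between 4.43 and 6.80 points downstream, and at 1000 kb the means of the 4 libraries lay between -0.460 and 1.25 points.

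**Figure D3:**
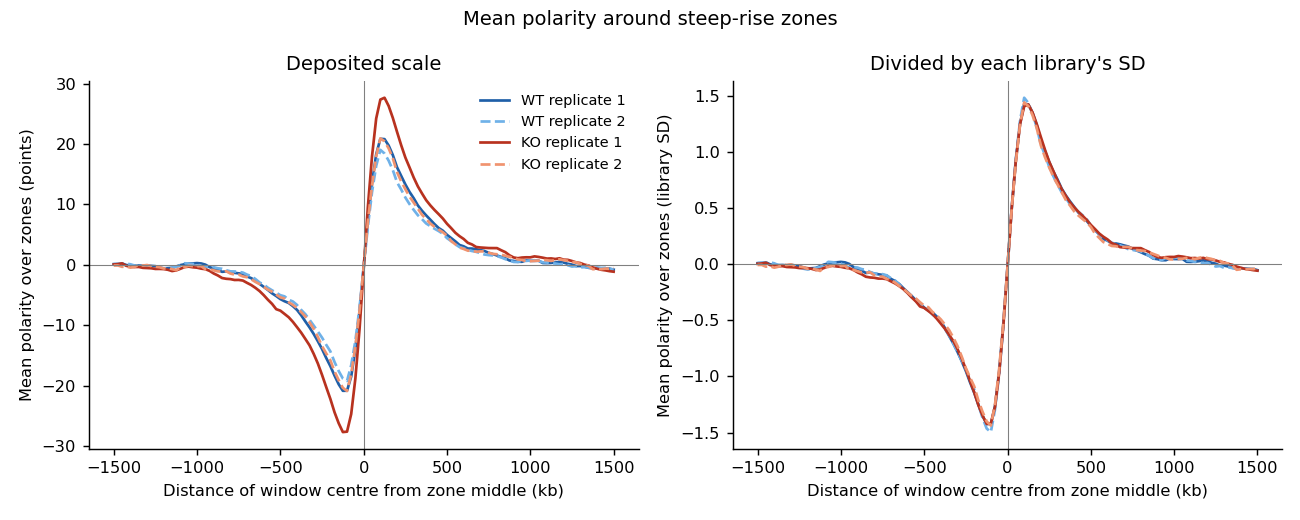
Mean polarity over the 669 zones against distance of the window centre from the zone middle (kb), in points (left) and divided by each library's SD of polarity (right), 1 line per library. In points KO replicate 1 reaches 27.6 points and the highest values of the others are 19.0 to 20.9 points, and in SD units the 4 lines nearly coincide.

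The distance over which polarity kept its sign was counted from the zone middle, so its first part lies in the paired windows that the rule used, and it is given without a test. On a running mean of 5 windows, polarity stayed above 0 for a mean of 583 and 582 kb downstream of the zone middle in WT, and for 619 and 574 kb in KO. The difference of 14.2 kb was below the pooled replicate SD of 22.4 kb (n = 2 each) and became -9.20 kb without KO replicate 1. Upstream, polarity stayed below 0 for 589.8 and 588.8 kb in WT and for 623.5 and 599.4 kb in KO. That difference of 22.1 kb exceeded the pooled replicate SD of 12.1 kb, with each KO library above each WT library (n = 2 each), and was 8.27 kb without KO replicate 1. The polarity 500 kb beyond the pair on the downstream side minus that on the upstream side was 6.69 and 5.94 points (WT) against 9.28 and 6.22 points (KO). The difference of 1.44 points was below the pooled replicate SD of 1.57 points (exact two-sided permutation p = 0.667, adjusted p = 1 over 6 tests, n = 2 each, with 0.33 the lowest p that 4 libraries can give). It was -0.185 points without KO replicate 1 and 2.88 points without KO replicate 2.

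Gene starts were more frequent at the zones than over all windows. Strands, and so starts, were known for 16457 autosomal protein-coding genes, on 18 autosomes with 645 zones; chromosome 18 is left out of these counts. A protein-coding gene started in the 100 kb gap of 447 of the 645 zones (69.3%, 95% Wilson interval 65.6 to 72.7%, counting error only), beside 37.0% of the gaps of all windows. Gaps of zones held 1.36 gene starts on average, beside 0.704 over all windows. The median distance from the zone middle to the nearest gene start was 27.5 kb, beside 95.4 kb for the middles of all pairs of windows. From the mean position of polarity 0 it was 23.5 kb over 626 zones.

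The higher density of gene starts was limited to about 100 kb on either side of the zone middle, within the bins of 50 kb measured out to 1000 kb. The bins on either side of the middle held 0.670 and 0.695 gene starts on average. Bins between 500 and 1000 kb away held 0.345, close to the 0.352 of all windows. At 125 kb from the middle the bins held 0.353 gene starts upstream and 0.315 downstream. Within 500 kb on either side the median was 6 gene starts for zones and 4 for all windows. Of the zones, 9.61% had no gene start within 500 kb, beside 18% of all windows.

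The share of windows with a gene start in the gap followed the size of the rise. It was 28.3% for windows whose smallest rise over the libraries was below 0, 51.9% from 0 to 10 points, 60.6% from 10 to 20 points, 66.7% from 20 to 30 points and 68.2% at 30 points or more. Most of the increase was therefore reached below the minimum that defines the zones. The mirror rule, a fall of 30 points or more in all 4 libraries, gave 212 zones against 669. A gene start lay in the gap of 87 of 206 of these falls (42.2%). Overlapping windows share gaps, so these shares carry no test.

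**Figure D4:**
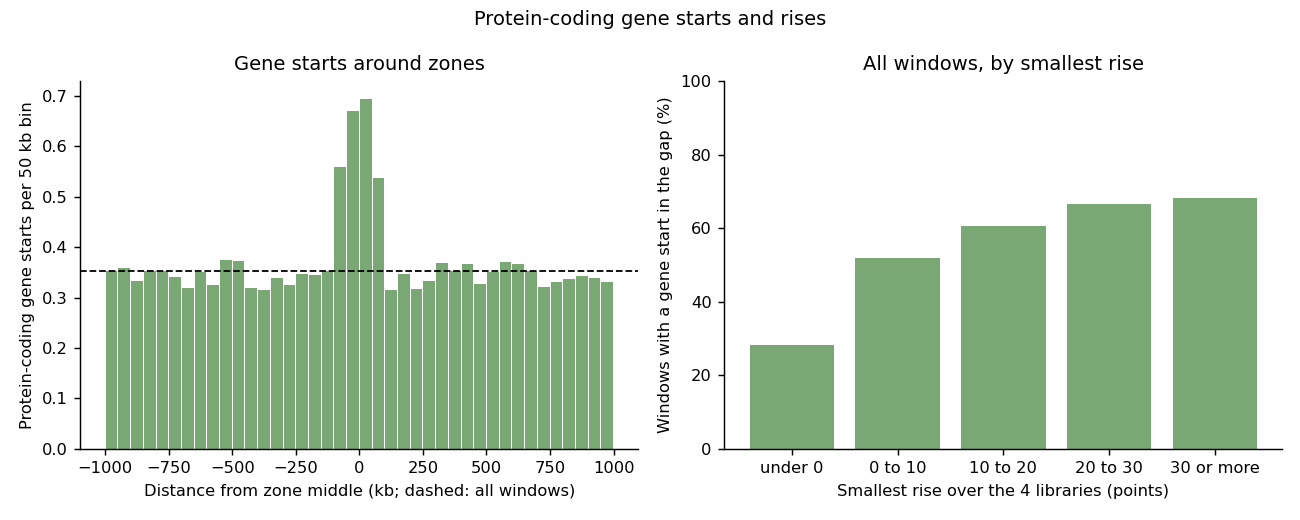
Protein-coding gene starts per 50 kb bin against distance from the zone middle (left, kb, mean over 645 zones, dashed line at the mean of all windows), and the share of all windows with a gene start in the gap by their smallest rise over the 4 libraries (right, %). The bins beside the middle hold 0.670 and 0.695 gene starts, and the share rises from 28.3% to 68.2%.

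The promoters of these genes were richer in CG than those of other genes. Of 875 genes that start in the gap of a zone, 567 had an observed to expected CG ratio of at least 0.6 in the 300 promoter bases. This is 64.8% (95% Wilson interval 61.6 to 67.9%, counting error only). The share was 46% of 3865 genes that start 50 to 500 kb from a zone middle, and 49.8% of all 16457 genes. Median CG counts were 19, 12 and 14. Among the promoters shown above, Trim7 had a ratio of 0.431, and Smarcad1, Cggbp1 and Mrpl39 had 1.13, 0.805 and 0.970.

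The strand of the genes beside the zones followed the rise only slightly. Of 4748 genes within 500 kb and nearest to a given zone, 2450 were transcribed away from the zone middle. This is 51.6% (95% Wilson interval 50.2 to 53.0%, counting error only), beside 49.9% of all genes on the plus strand. Genes near the same zone are not independent, and the interval leaves this out. Within 100 kb the share was 53.8% of 1406 genes. The nearest gene starts on either side pointed in divergent directions in 25.4% of zones, beside 19.8% of all pairs of windows, and in convergent directions in 25.9%, beside 28.1%. The zone middle lay inside a protein-coding gene in 46.2% of all 669 zones, beside 41.3% of all windows.

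Among the zones, which all passed the minimum rise in every library, rises with and without a gene start were alike in size. Where a gene started in the gap (447 zones), mean rises were 41.8 and 38.2 points (WT) against 54.9 and 42.0 points (KO). Where none did (198 zones), they were 41.3 and 38.2 points (WT) against 54.7 and 41.1 points (KO). The KO to WT ratio was 1.21 for each. Because the rule left smaller rises out of both groups, this likeness cannot show whether gene starts go with the size of a rise. Over all windows the share with a gene start increased with the smallest rise, as given above.

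Gene groups were counted by whether the middle of the gene lay in the span of a zone. The span runs from the first kept window to the end of the last paired window, so a counted gene can lie outside the gap. Spans covered 9.98% of the measured DNA and held 13.3% of 20665 protein-coding genes. Of 18 pluripotency factors, the transcription factors and other genes that keep stem cells undifferentiated, 10 lay in a zone. The list was written after Sox2 and Prdm14 had been seen among the steepest zones and is no independent evidence. The 10 were Sox2, Prdm14, Nanog, Dppa3, Klf4, Klf5, Tbx3, Zfp42, Dppa4 and Gbx2, and Nanog and Dppa3 share a zone. Pou5f1, Klf2, Esrrb, Tfcp2l1, Sall4, Lin28a, Tdgf1 and Nr5a2 lay outside the zones.

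Other groups ranged around the share of all genes. Of 39 Hox genes, which set body axis identity, 9 lay in a zone, all in the Hoxd cluster and so in 1 zone. Of 19 factors that license or fire replication origins, Mcm3, Mcm5 and Orc6 lay in zones, and of 11 autosomal genes of ISWI subunits only Chrac1 did. Ribosomal protein genes had 14 of 76 in zones (18.4%). Shares were lower for olfactory receptor genes (91 of 1104, 8.24%), vomeronasal receptor genes (12 of 354, 3.39%) and genes over 300 kb long (17 of 533, 3.19%), and 0 of 53 keratin genes lay in a zone. Members of clustered families share sites, and a long gene that starts in a zone can have its middle outside it.

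Individual zones were then described, the 10 with the largest smallest rise first. The zone at chr6:64800001-65250000 ranked first, with Smarcad1 starting in its gap at chr6:65000001-65100000. Its rises were 58.9 and 58.2 points (WT) against 77.8 and 59.0 points (KO). Polarity climbed from about -28 to about 30 points in WT (-28.2 to 30.6 in replicate 1, -28.0 to 30.2 in replicate 2) and from -35.5 to 42.3 and -28.4 to 30.6 points in KO. Only KO replicate 1 was clearly higher, and KO replicate 2 was level with WT.

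At chr18:66250001-66700000, whose gap overlaps Pmaip1, an apoptosis gene of the BH3-only family, the rises were 62.2 and 58.1 points (WT) against 80.9 and 63.4 points (KO). At chr16:64650001-65100000, with Cggbp1 and Zfp654, a zinc finger gene, they were 54.9 and 53.1 points (WT) against 81.6 and 55.9 points (KO). KO replicate 1 there had the highest rise of any zone and library. These 3 zones all had the largest width of 175 kb and came first among the 24 zones of that width when ordered by rise.

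The zone at chr11:48600001-49025000 holds the starts of Rack1, which encodes a scaffold protein of the small ribosomal subunit, and of the ubiquitin ligase genes Trim41 and Trim7. Its rises were 57.4 and 54.6 points (WT) against 78.3 and 54.7 points (KO). The zone at chr16:84525001-84975000, with the start of Mrpl39 and part of Jam2, a junctional adhesion gene, rose by 55.7 and 52.7 points (WT) against 78.6 and 53.4 points (KO). At chr9:31775001-32225000, where Arhgap32 starts, the rises were 53.2 and 52.5 points (WT) against 72.4 and 53.1 points (KO). In each of these 3 zones KO replicate 2 lay between the WT libraries.

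At chr3:34500001-34925000, whose gap overlaps Sox2 and the lncRNA Sox2ot, the rises were 55.6 and 52.2 points (WT) against 67.8 and 54.2 points (KO). Sox2 is a core transcription factor of embryonic stem cells. At chr1:12875001-13300000, whose gap overlaps Prdm14, a repressor of differentiation, they were 52.0 and 51.0 points (WT) against 72.9 and 52.5 points (KO). At chr2:74500001-74925000, where Hoxd12 to Hoxd1 start, they were 51.3 and 51.1 points (WT) against 69.1 and 50.9 points (KO). In all 3 zones KO replicate 1 had the highest rise and the other 3 rises lay close together.

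The zone at chr14:64400001-64825000 had no protein-coding gene in its gap, which overlaps the host gene of Mir124a-1, a microRNA of neurons, and Mir3078. Its rises were 60.3 and 50.7 points (WT) against 62.3 and 54.2 points (KO). Here the genotypes overlapped, and in SD units both KO libraries lay below both WT libraries (KO minus WT mean -0.567 SD).

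**Figure D5:**
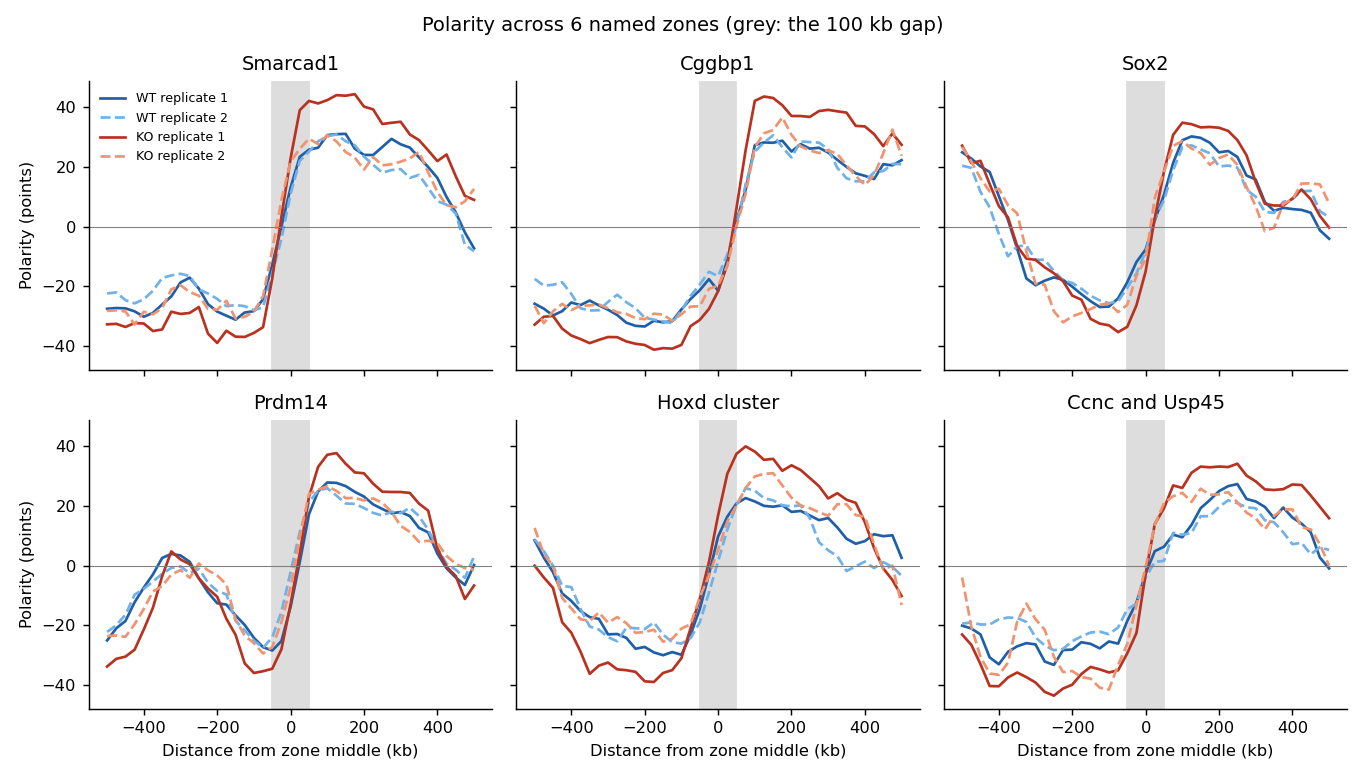
Polarity (points) of the 4 libraries in 6 named zones against distance from the zone middle (kb), with the 100 kb gap in grey. In the first 5 panels KO replicate 1 has the largest rise between the paired windows, and the other libraries have similar rises. Elsewhere in these panels KO replicate 2 does not always run with WT. At Ccnc and Usp45 both KO libraries rise further (61.7 and 65.8 points) than both WT libraries (34.8 and 33.2 points).

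The 5 zones with the largest genotype difference, among those without overlap between genotypes, all had higher rises in KO. They were chosen for this difference, so it is given as a description. All 5 are among the 8 zones called with the replicate number as a block, and none was called in the 4-library fit without the block. At chr4:21575001-21950000, where Ccnc (cyclin C) and Usp45 (a deubiquitinase) start, the rises were 34.8 and 33.2 points (WT) against 61.7 and 65.8 points (KO). The difference was 29.7 points with an SE of 5.59 points. It stayed between 27.7 and 31.8 points when any library was left out. It was the only zone of the 5 in which KO replicate 2 was above KO replicate 1.

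At chr9:24600001-24925000, where the cardiac transcription factor gene Tbx20 starts, the rises were 43.7 and 32.4 points (WT) against 74.0 and 55.0 points (KO). KO exceeded WT by 26.4 points, with an SE of 6.95 points. At chr14:40800001-41100000, where Sh2d4b and the tetraspanin gene Tspan14 start, they were 31.8 and 32.5 points (WT) against 63.0 and 49.9 points (KO). KO exceeded WT by 24.3 points, with an SE of 6.06 points. At chr11:109150001-109550000, with the start of Gna13, a G protein alpha subunit gene, they were 40.9 and 39.6 points (WT) against 67.6 and 59.5 points (KO). KO exceeded WT by 23.2 points, with an SE of 5.75 points. The gap of the zone at chr2:65300001-65625000 overlaps the sodium channel gene Scn3a, and its rises were 44.1 and 36.4 points (WT) against 72.7 and 54.3 points (KO). KO exceeded WT by 23.2 points, with an SE of 6.70 points. Without KO replicate 1 the differences were 16.9 points at Tbx20, 17.7 points at Sh2d4b and Tspan14, 19.2 points at Gna13 and 14.0 points at Scn3a. In SD units the 5 differences stayed positive, between 0.814 and 1.37 SD, and the genotypes did not overlap.

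In points, both KO rises lay below both WT rises in the 10 zones counted above, and 1 of them is named here after its values were seen. At chr7:41375001-41775000, where the predicted gene Gm6871 starts, the rises were 57.4 and 50.1 points (WT) against 41.1 and 37.2 points (KO). KO minus WT was -14.6 points, with an SE of 5.75 points. It is the zone called with libraries standardised. Both its WT rises lay above both its KO rises on either scale.

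As in 602 of all 669 zones, KO replicate 1 had the highest rise in each zone that holds one of the 10 pluripotency factors, of which Klf5, Nanog with Dppa3, and Klf4 are given here, chosen after their values were seen. At Klf5, a Krüppel-like factor of stem cells, the rises were 48.3 and 46.1 points (WT) against 59.3 and 46.9 points (KO). At Nanog and Dppa3 they were 41.0 and 35.1 points (WT) against 64.0 and 40.0 points (KO). At Klf4, which lay at the edge of the rule with a width of 25 kb, they were 30.3 and 30.6 points (WT) against 57.8 and 39.1 points (KO). The gene middles lay at 6.05 kb (Klf5), -38.9 kb (Nanog), -122 kb (Dppa3) and 105 kb (Klf4) from the zone middle. Those of Dppa3 and Klf4 were thus outside the 100 kb gap. Both KO libraries were above both WT libraries at Klf4, and the genotypes overlapped at Klf5 and Nanog.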

How the data were processed

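The authors deposited 1 table of a signed strand imbalance score (polarity) per window and library, in percentage points. Per the submitters' processing notes, reads were handled with Trim Galore 0.6.5 and Bowtie2 2.4.1 on GRCm38, and per the file headers they were deduplicated. The formula, the strand counted as positive and any read minimum are not given in the sources used here. The table holds no counts, so depth is unknown and no interval of polarity was computed. The column for WT replicate 2 carries another index sequence than the sample description, and was matched by its name.

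Full-length autosomal windows with a value in all 4 libraries were used, and no value column was left out. Rises were fitted with limma 3.58.1 in R 4.3.3 (lmFit, eBayes, Benjamini-Hochberg), and library means were compared by exact permutation over 6 label orders. The zone rule and fit were checked on simulated data with equal, independent noise in all libraries. The differences in scale between the real libraries and the shared noise of overlapping windows were not simulated. Genes and promoters came from RefSeq tables of GRCm38.p6, in which 81.7% of protein-coding genes on the 18 autosomes used had a strand. Named were the 10 zones with the largest smallest rise, the 5 with the largest difference without overlap between genotypes, and the 3 widest, with genes starting in or overlapping the gap. Members, lists and rules were chosen with earlier results of these data known; run lengths, falls, promoters and gene groups were added later. Python 3.11.15, numpy 2.4.6, pandas 2.3.3 and scipy 1.17.1 were used.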

Additional observations from a re-analysis of the deposited data

Results flagged for a closer look

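The X chromosome was outside the comparisons, and the share of its windows with a rise of 30 points or more exceeded the WT level in both KO libraries. WT replicates 1 and 2 had 5.75% and 4.11%, against 10.4% and 6.70% for KO replicates 1 and 2, over 5761 windows. The KO mean of 8.57% and the WT mean of 4.93% differed by 3.65 percentage points (exact permutation p = 0.33, the lowest p that 4 libraries can give). On autosomes the means were 7.59% and 4.51%. A share above a fixed minimum depends on the scale of each library, and the X share was not computed in SD units. By the same rule X held 44 zones, with mean rises of 42.0 and 40.0 points (WT) against 54.7 and 41.8 points (KO).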

How the results depend on the processing

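With the X chromosome added or windows up to 100 kb apart joined, the differences between genotypes in rise, position, outer difference and runs kept their direction, and over all member windows the rise, the one result run there, did too. The number of zones was 1081 with a minimum of 25 points and 385 with 35 points, from 669. Median spacing was 1675 kb and 4050 kb under these, 3200 kb with the paired window at 150 kb, 1987.5 kb at 300 kb and 2175 kb with standardised libraries, and 1975 to 2525 kb when a library was left out. The share of zones with a gene start was 53.0% with the pair at 150 kb and 81.4% at 300 kb, where the gap is shorter or longer, and 83.6% over the whole pair. Genes pointing away were 53.3% with a flank of 250 kb. The shift of position was -0.343 kb with a minimum of 25 points and -0.163 and -0.0677 kb with pairs at 150 and 300 kb, and between -0.171 and 1.04 kb without a library; the cause was not tested. The outer difference was between -0.185 and 2.88 points, and the downstream run between -9.20 and 28.2 kb, without a library. With outer windows at 250 kb the outer difference was 3.44 points, from 1.44. The downstream run was 24.6 kb with a running mean of 9 windows and 27.5 kb with a minimum of 35 points, from 14.2 kb. Called zones numbered 2 when libraries were standardised before the rule (beside 0.551% of all windows), 8 with the replicate block (beside 1.51%), and 0 to 292 without a library (0 without WT replicate 1 or 2, beside 0.0266% and 0.0298% of windows; 5.86% and 11% without KO replicate 1 or 2). Same-numbered libraries share only a number in the labels, and their deviations correlated at 0.161, or 0.0121 in SD units. In this balanced layout a block cannot change a difference of library means, so that of the rise is 8.40 points by construction. The count of called zones stayed 0 on the atanh scale (beside 0.00744% of windows), with trend and robust options (0.235%), with windows spaced 100 kb (0.00851%) and at an adjusted p-value under 0.1 (0.0989%). The limits are 2 libraries per genotype, unknown depth and windows of 100 kb, which blur positions.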
